A study of Mus musculus with 4 samples.

Results

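Saa1, Saa2, Saa3, Ptx3, Hp, Orm1 and Lbp encode secreted proteins of the acute phase response, and they were followed here in whole colon of mice with dextran sulphate sodium (DSS) colitis. They were taken by gene name from the non-control spots of the arrays. All 7 were on the array, with 1 probe each, and 6 of them were among the 19326 genes tested. The mutant mice carried the floxed Junb alleles Junb fl/fl together with Cd4-Cre, and the controls carried Junb fl/fl without Cre. JunB belongs to the AP-1 transcription factors, and Cre under control of Cd4 sequences removes floxed alleles from T lineage cells. All mice were C57BL/6 and had DSS in their drinking water, which injures the colon epithelium, and the colon was taken on day 5. Neither untreated mice nor mice with Cre and intact Junb were among the groups, so the comparison is between 2 genotypes under DSS. The labels used here give no age. Each genotype had 2 one-colour arrays, each of total RNA of a whole colon, and nothing in the labels says whether the mice were littermates.

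Acute phase proteins are best known as products of the liver, which releases them when interleukin 6, interleukin 1 and related cytokines reach it through the blood. STAT3, the C/EBP factors and NF-kappaB carry these signals to the genes. Several are also made at the site of injury. In the mouse, gut epithelium makes Saa1 and Saa2 in response to microbes, and Saa3 is made by epithelium, macrophages and fat cells. Hp is also transcribed in maturing granulocytes and in white fat. The serum amyloid A proteins bind lipids and retinol and act on leukocytes, and Ptx3 is a long pentraxin that opsonises microbes and binds complement. Haptoglobin, the product of Hp, captures free haemoglobin, Lbp hands lipopolysaccharide to Cd14, and the orosomucoid Orm1 carries small molecules.

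The arrays had 56605 probes, of which 27940 to 29093 were well above background, and no spot was saturated. Pearson's r between arrays was 0.976 to 0.984 across genes. It was lowest between the control arrays (0.9764) and highest between the replicate 2 arrays of Cd4-Cre and control (0.9835). The labels do not state sex. Xist, transcribed from the inactive X chromosome, gave a log2 signal of -0.77 and -0.55 on the replicate 1 arrays of Cd4-Cre and control and of -6.43 and -6.13 on the replicate 2 arrays, while the Y-linked gene Eif2s3y was bright on the replicate 2 arrays alone. Replicate 1 is therefore called female and replicate 2 male below, and anything else that mice of 1 replicate number shared cannot be told apart from sex. Junb itself differed by 0.15 ± 0.11 (SE, limma adjusted p = 0.691), and since Cd4-Cre leaves it intact outside T cells, whole tissue does not check the deletion. All 8 epithelial markers of the colon (among them Epcam, Krt20 and Car1) were tested, with a median log2 difference of 0.04. Values below are log2 of the processed signal minus the 75th percentile of its array, and differences are Cd4-Cre minus control with the moderated standard error of limma (n = 2 and 2 arrays).

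Of the 6 genes tested, none passed a Benjamini-Hochberg adjusted p of 0.05 in limma. No other gene of the array did so either (0%), while 1796 genes had an unadjusted p under 0.05. All 6 were higher in Cd4-Cre colons on average, where 10310 of 19326 genes were (53.3%). Their median log2 difference was 0.68, and over all genes it was 0.02. At least 2-fold higher were Ptx3, Saa3 and Hp, a size reached by 1.22% of all genes. Higher in both same-sex pairs were 5 of the 6, all but Lbp, against 36.3% of all genes. Both Cd4-Cre arrays lay above both control arrays for Saa1, Saa2 and Ptx3, as they did for 25.7% of all genes. For Saa1 and Saa2 this order, and the higher value in the male pair, held after scaling and not in the unscaled signals. Ptx3 alone had an unadjusted p under 0.05, in a direction in which 5.31% of genes did, and none was lower at that p, as 3.98% of genes were. These counts include Ptx3, which entered the test through the Cd4-Cre arrays only and so had to differ. Without it the median of the remaining 5 was 0.28, and without control replicate 1 and control replicate 2 in turn the median of all 6 was 0.21 and 1.25. They describe the genes and are no test of them as a set. With the replicate number as a block, 5 of the 6 (Ptx3 included) were higher at an unadjusted p under 0.05, as 10.1% of all genes were. This block sets mice of 1 sex side by side but is not stated in the labels to be a pairing. Its standard errors rest on how alike the differences of the same-sex pairs were and on a spread shared over all genes. They do not measure the spread between mice of 1 genotype. With the block Saa3 passed the adjusted threshold (limma adjusted p = 0.0415), as 0.181% of genes did in that direction.

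**Figure D1:**
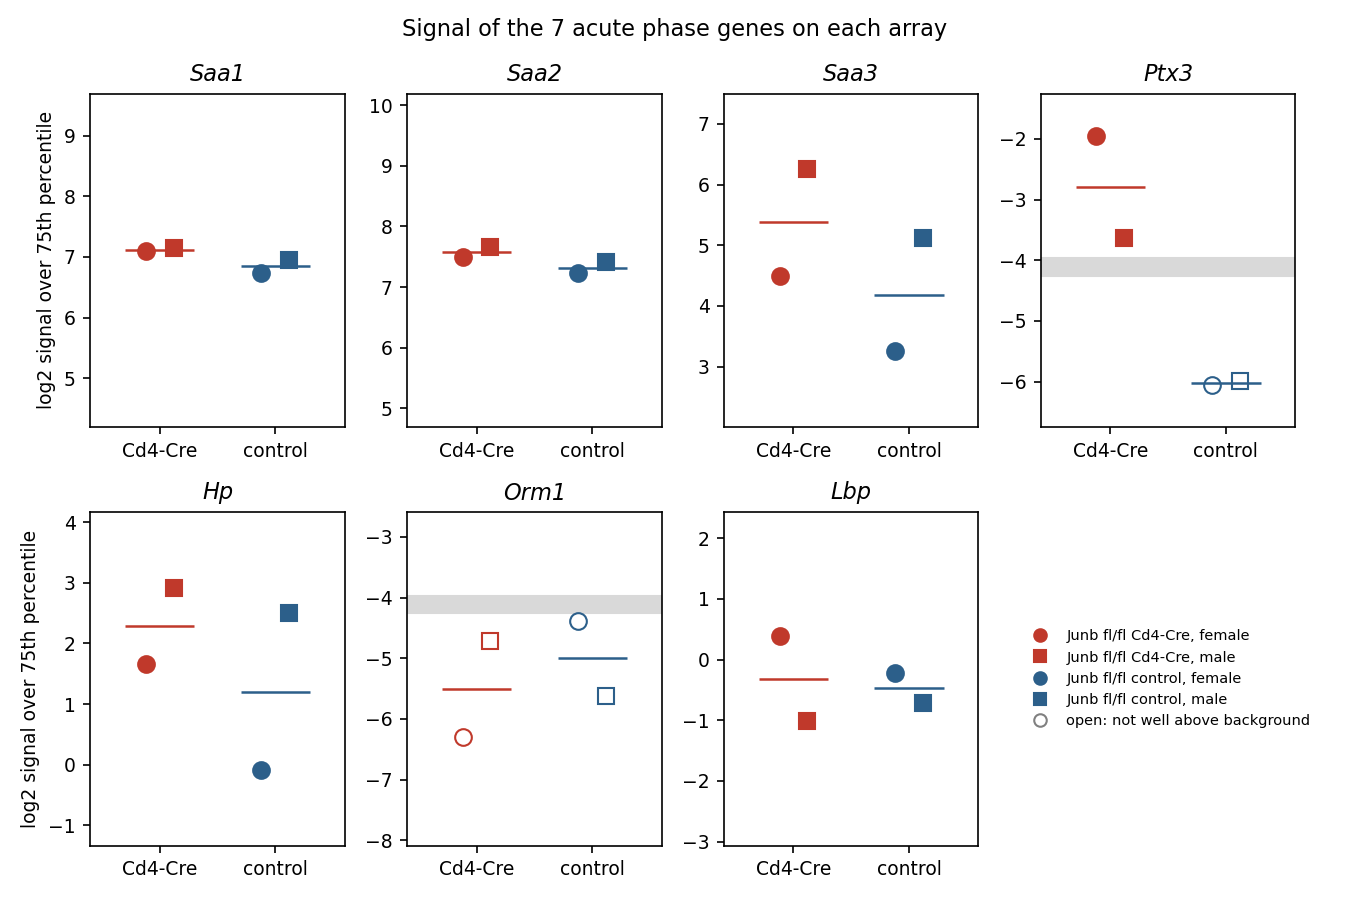
Log2 processed signal over the 75th percentile of the array (y axis) on each of the 4 arrays, 1 panel per gene, Cd4-Cre left and control right, with circles for females and squares for males. Every panel spans 5.5 log2 units, horizontal lines are group means, and the grey band is the lowest signal called well above background. The 2 genotypes lie 0.28 and 0.25 apart for Saa1 and Saa2, the sexes stand apart for Saa3 and Hp, and both Ptx3 controls lie under the grey band.

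Saa1 and Saa2, the liver and gut serum amyloid A genes, gave bright spots in every colon and differed little between genotypes. Their probes lie on chromosome 7, at chr7:53996070-53996129 for Saa1 and chr7:54009535-54009594 for Saa2 (mm9). The symbols of the 2 genes were once exchanged, and RefSeq lists each as a synonym of the other, so they were identified by the accession of the probe. The Saa1 probe, shown because it reads the end of the coding sequence, runs past the stop codon.

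Saa1 probe: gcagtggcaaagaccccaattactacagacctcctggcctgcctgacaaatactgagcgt

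The processed signal of Saa1 was 42448 and 38057 in Cd4-Cre colons, against 35226 and 40617 in controls. On the log2 scale this gave 7.09 and 7.15 in Cd4-Cre colons and 6.74 and 6.95 in controls. The signals overlapped between genotypes before scaling, and the log2 values, which allow for the lower 75th percentile of the Cd4-Cre arrays (310.9 and 268.5, against 330.0 and 328.6 in controls), did not. Saa1 averaged 7.12 ± 0.04 in Cd4-Cre colons and 6.84 ± 0.15 in controls (SD, n = 2 each), a 1.21-fold difference (log2 0.28 ± 0.12, SE, limma adjusted p = 0.565).

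Saa2 went the same way, with 7.49 and 7.65 in Cd4-Cre colons and 7.23 and 7.41 in controls. Before scaling its signals overlapped too, at 55875 and 53998 in Cd4-Cre colons and 49479 and 55837 in controls. The log2 difference of Saa2 was 0.25 ± 0.13 (SE, limma adjusted p = 0.595), or 1.19-fold. In the female and the male pair Saa1 differed by 0.36 and 0.20, and Saa2 by 0.26 and 0.24. These differences depend on the scaling: after quantile normalization they were 0.02 for Saa1 and 0.08 for Saa2. The scanner software put the error of the Saa1 signal at 4245 and 3806 in Cd4-Cre colons and at 3523 and 4062 in controls. On the female Cd4-Cre array the brightest spot was 3.77 times as bright as Saa1 and 2.86 times as bright as Saa2. Whether signals this bright still rise in proportion to the RNA was not tested.

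Hepatocyte markers were read beside these genes, since the liver is their main source. Alb, Ahsg, Fgb and Apoc3, which encode albumin, fetuin A, a fibrinogen chain and an apolipoprotein, did not clear background on any of the 4 arrays. Of the 6 hepatocyte markers tested, 5 were lower in Cd4-Cre colons on average, where 53.3% of all genes were higher. The median log2 difference of the 6 was -0.68. The smallest unadjusted p belonged to Cyp2e1 (-2.44 ± 0.37), Cyp2c29 (-0.79 ± 0.19) and Serpina1c (-0.77 ± 0.31), none past the adjusted threshold. Tat, named after its values were seen, was higher (0.31 ± 0.22). Summed over all 11 markers, the level relative to the 75th percentile was 3.02 to 3.51 in Cd4-Cre colons and 4.43 to 4.56 in controls. With Alb, Ahsg, Fgb and Apoc3 dim, whether these values reflect hepatocytes at all was not tested.

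Saa3, the serum amyloid A gene of epithelium, macrophages and fat, was 2.28-fold higher in Cd4-Cre colons on average. Its probe lies on chr7:53967559-53967618 (mm9), in the same cluster of genes, and is printed for comparison with the Saa1 probe, since the genes are close relatives.

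Saa3 probe: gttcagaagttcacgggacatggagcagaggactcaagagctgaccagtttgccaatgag

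The log2 signal of Saa3 was 4.50 in the female and 6.25 in the male Cd4-Cre colon, against 3.25 in the female and 5.12 in the male control. The male control lay above the female Cd4-Cre colon, so the genotypes overlapped. Within each sex the Cd4-Cre colon was the higher, by 1.25 among females and by 1.13 among males (2.38-fold and 2.20-fold). Saa3 averaged 5.38 ± 1.24 in Cd4-Cre colons and 4.19 ± 1.32 in controls (SD, n = 2 each). The difference of 1.19 ± 0.81 (SE) had a limma adjusted p of 0.670 (0.0415 with the replicate block) and without the block did not exceed the spread between mice of 1 genotype. It was 0.26 without control replicate 1, 2.12 without control replicate 2, 2.07 without mutant replicate 1 and 0.31 without mutant replicate 2.

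Windows before the gene start were found for Saa1, Saa2, Saa3 and Ptx3 only, and not for Hp, Orm1 and Lbp. These 4 genes were higher in both pairs, as was Hp, but were not selected for it. The windows are printed because C/EBP factors are textbook regulators of the serum amyloid A genes. Each is the 250 bases before a RefSeq gene start on GRCm38.p6, 5′ to 3′, and capitals mark matches to the C/EBP core TTNNGCAA on either strand (TTGCNNAA where it lies on the other strand).

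Saa1, chr7:46742981-46743230, minus strand: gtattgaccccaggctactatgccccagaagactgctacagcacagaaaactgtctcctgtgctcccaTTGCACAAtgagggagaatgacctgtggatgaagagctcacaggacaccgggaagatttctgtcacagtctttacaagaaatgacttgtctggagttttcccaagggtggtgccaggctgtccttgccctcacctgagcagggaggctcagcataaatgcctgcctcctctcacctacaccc

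Saa2, chr7:46751583-46751832, plus strand: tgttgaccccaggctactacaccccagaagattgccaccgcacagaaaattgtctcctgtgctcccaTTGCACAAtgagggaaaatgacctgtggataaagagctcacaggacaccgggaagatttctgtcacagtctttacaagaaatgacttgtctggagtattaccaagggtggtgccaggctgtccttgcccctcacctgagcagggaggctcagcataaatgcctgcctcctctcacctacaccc

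Saa3, chr7:46715677-46715926, minus strand: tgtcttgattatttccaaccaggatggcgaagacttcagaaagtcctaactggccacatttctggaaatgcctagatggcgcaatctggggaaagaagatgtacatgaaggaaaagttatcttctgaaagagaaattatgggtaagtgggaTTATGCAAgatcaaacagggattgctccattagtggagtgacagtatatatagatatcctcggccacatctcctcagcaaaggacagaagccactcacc

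Ptx3, chr3:66219637-66219886, plus strand: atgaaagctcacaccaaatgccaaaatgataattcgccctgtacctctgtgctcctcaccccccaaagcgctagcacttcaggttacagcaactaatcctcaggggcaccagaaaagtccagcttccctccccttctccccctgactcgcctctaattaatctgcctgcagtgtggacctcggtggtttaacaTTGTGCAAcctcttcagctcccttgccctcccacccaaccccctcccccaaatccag

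Each window held 1 C/EBP match, where 9.56% of 32851 mouse windows of this length held any. Counted from the gene start, the matches began at position -182 in Saa1 and -183 in Saa2, with the same letters, at -99 in Saa3 and at -57 in Ptx3. Saa1 and Saa2 were identical at 94.8% of aligned positions, and Saa1 and Saa3 at 52.5%, close to the 50.9% of the unrelated pair Saa1 and Ptx3. A broad NF-kappaB pattern, GGG and CC with 5 free bases between them on either strand, matched once in Saa1 and once in Saa2, apart from the C/EBP match, and 45.8% of windows hold it. The STAT pattern TTCNNNGAA, present in 7.02% of windows, and TATAAA on either strand, present in 12.4%, were in none of the 4. A match is a run of letters and does not show binding.

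Ptx3 was detected in the Cd4-Cre colons only. Its probe (chr3:66029245-66029304, mm9) had a processed signal of 80.2 in the female and 21.6 in the male Cd4-Cre colon, both well above background. The controls had 4.98 and 5.20, neither well above background. Both Cd4-Cre values therefore lay above both controls. Set against the lowest signal that counts as well above background, Ptx3 was at least 2.27-fold higher in Cd4-Cre colons. This limit rests on the female: it was 1.27-fold without mutant replicate 1 and 4.07-fold without mutant replicate 2, the male, whose signal lay just above the lowest signals that counted on the control arrays (20.8 and 21.0). The measured log2 means were -2.80 ± 1.19 in Cd4-Cre colons and -6.02 ± 0.05 in controls (SD, n = 2 each), and the fitted difference of 3.22 ± 0.64 (SE, limma unadjusted p = 0.00374, adjusted p = 0.418) rests on control values that are only a bound. With dim values raised to the floor the difference was 1.18 (unadjusted p = 0.0899), and after normexp background correction it was 0.93. The female Cd4-Cre colon was the brighter of the pair, opposite to Saa3. In whole tissue, fewer cells of a type and less RNA per cell cannot be told apart, here or for any gene below.

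Receptors and binding partners of the acute phase proteins were read from a list of 19. Of the 18 tested, 11 were higher and 7 lower in Cd4-Cre colons, with a median log2 difference of 0.07, and 2 had an unadjusted p under 0.05, both higher, where 5.31% of all genes did so. Cd14, the receptor to which Lbp delivers lipopolysaccharide, gave 2.86 and 2.85 in Cd4-Cre colons and 2.13 and 2.19 in controls (difference 0.70 ± 0.10, SE, limma adjusted p = 0.417). Fpr2, a formyl peptide receptor that serum amyloid A activates, differed by 1.51 ± 0.57 and the purine receptor gene P2rx7 by -0.32 ± 0.14. For Cd14 the Cd4-Cre colon was the higher in both pairs (0.73 in females, 0.66 in males), as for 36.3% of all genes.

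Hp showed the same layout as Saa3, with high male and low female values. Its probe (chr8:112099045-112099104, mm9) gave 1.66 in the female and 2.92 in the male Cd4-Cre colon, against -0.09 in the female and 2.50 in the male control. The female control was the lowest, and the genotypes overlapped. The female pair differed by 1.75 (3.36-fold) and the male pair by 0.42 (1.34-fold). Hp averaged 2.29 ± 0.89 in Cd4-Cre colons and 1.21 ± 1.83 in controls (SD, n = 2 each), a difference of 1.08 ± 0.91 (SE, limma adjusted p = 0.722). Without control replicate 1, the female control, the sign turned to -0.21, and without control replicate 2 the difference was 2.38. Without mutant replicate 1 it was 1.71 and without mutant replicate 2 it was 0.45.

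Lbp, the lipopolysaccharide binding protein gene, differed in sign between the female and the male pair, which was not tested. Its probe spans chr2:158154142 to 158157684 (mm9), more than its own length. It gave 0.38 in the female and -1.02 in the male Cd4-Cre colon, against -0.21 in the female and -0.71 in the male control. Both Cd4-Cre values lay outside the range of the controls, 1 above and 1 below. The difference was 0.60 between the females and -0.31 between the males, and the fitted difference of 0.14 ± 0.48 (SE, limma adjusted p = 0.942) was near 0. It was -0.10 without control replicate 2, -0.56 without mutant replicate 1, 0.39 without control replicate 1 and 0.85 without mutant replicate 2.

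Orm1 did not clear background on any of the 4 arrays and was not tested. Its probe, which spans chr4:63007395 to 63009038 (mm9), is printed because the array design assigns it to Orm2 as well, so that it could not have told the 2 orosomucoids apart.

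Orm1 probe: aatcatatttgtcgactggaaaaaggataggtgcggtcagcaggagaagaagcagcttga

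The processed signal of Orm1 was 3.97 and 10.3 in Cd4-Cre colons and 15.8 and 6.69 in controls, in no order by genotype. The probes named for Orm2 and Orm3 did not clear background either.

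**Figure D2:**
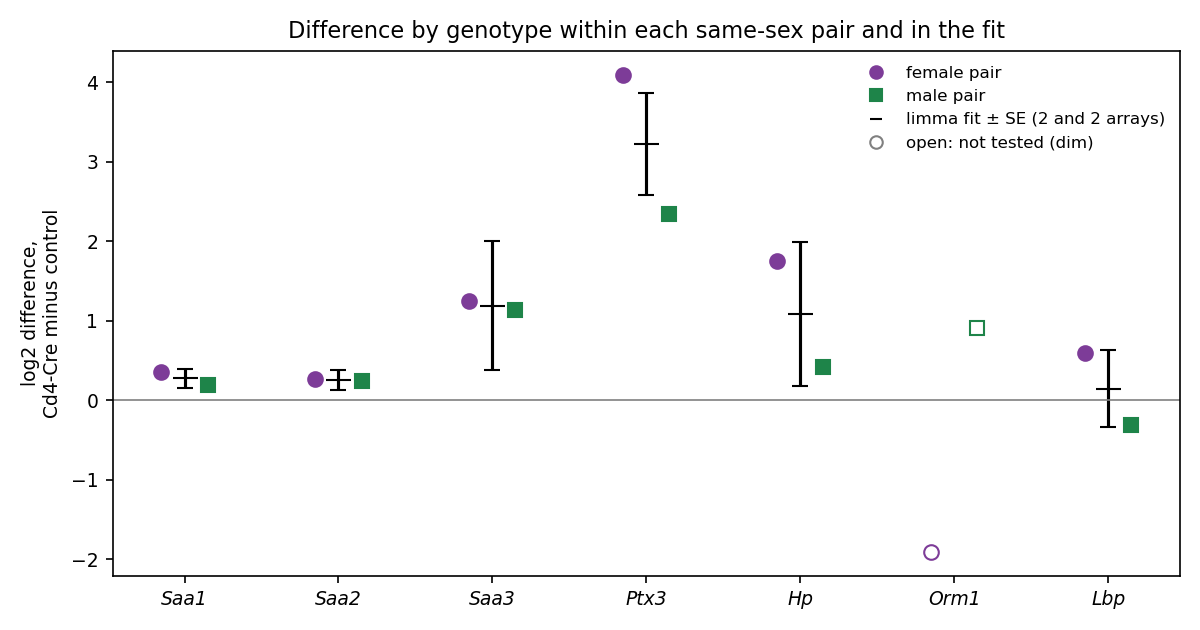
Log2 difference, Cd4-Cre minus control (y axis), for each gene in the female pair (circles) and the male pair (squares), each 1 mouse against 1 mouse, with the limma estimate and its standard error over 2 and 2 arrays in black. Saa2 and Saa3 differ about equally in both pairs, Saa1 by 0.36 in females and 0.20 in males, Hp by 1.75 and 0.42, and Lbp by 0.60 and -0.31. Orm1, drawn open, was too dim to test, and the Ptx3 values rest on dim controls.

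Saa3 and Hp varied more between the sexes than between the genotypes. Saa3 was 3.37-fold higher in the male than in the female among Cd4-Cre colons and 3.65-fold among controls, and Hp was 2.39-fold and 6.01-fold higher. In the limma fit with the replicate number as a block, read as sex after the data were seen, Saa3 differed by 1.81 ± 0.08 (male minus female, SE, adjusted p = 0.0102) and Hp by 1.92 ± 0.31 (adjusted p = 0.0896). These standard errors rest on how alike the difference was in Cd4-Cre colons and in controls, and on a spread shared over all genes. They do not measure the spread between mice of the same sex and genotype. Genes higher in males at an adjusted p under 0.05 made up 0.455% of those tested. Lbp was lower in the male of both genotypes (log2 -1.40 in Cd4-Cre and -0.50 in controls), with a limma adjusted p of 0.189. Saa1 and Saa2 differed by 0.13 and 0.17. Over the 4 arrays the log2 signal spanned 3.01 for Hp and nearly as much for Saa3, 0.41 for Saa1 and 0.42 for Saa2, where the median gene spanned 0.42.

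**Figure D3:**
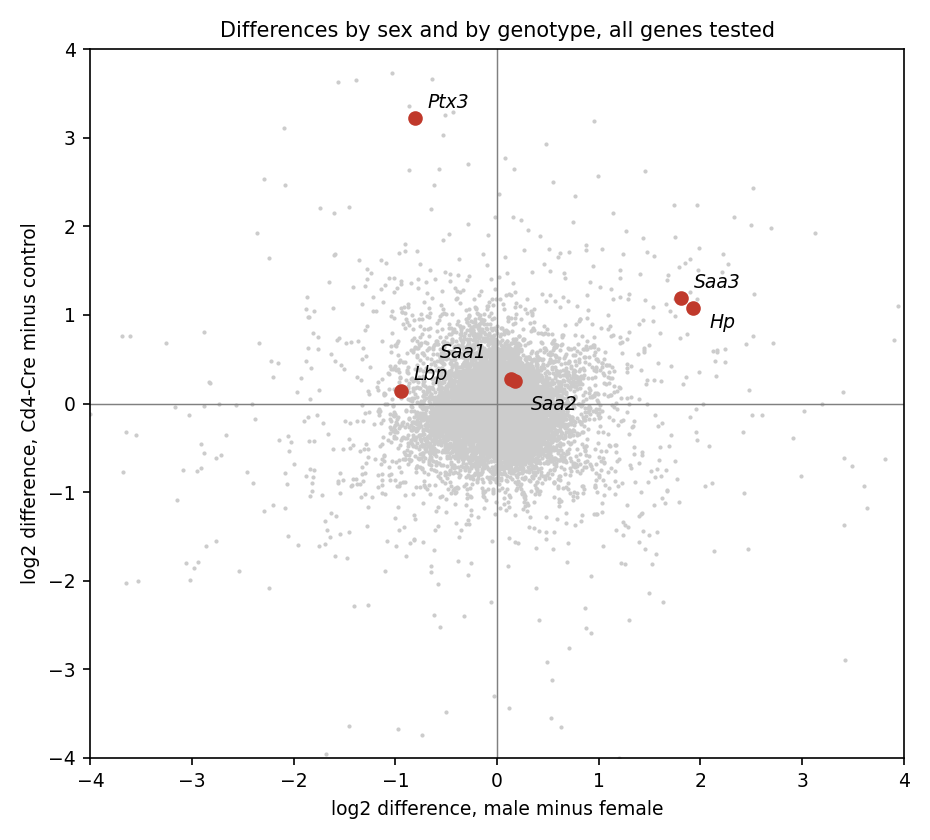
Log2 difference male minus female (x axis) against log2 difference Cd4-Cre minus control (y axis) for all genes tested (grey) and the 6 acute phase genes tested (red), from a fit of both terms on 4 arrays. Saa3 and Hp lie at 1.81 and 1.92 on the x axis and at 1.19 and 1.08 on the y axis, Ptx3 at -0.81 on the x axis and 3.22 on the y axis, and Saa1 and Saa2 near the centre. A total of 31 genes lie outside the axes.

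Of 10 cytokines that induce acute phase genes, 7 were tested. These were higher in Cd4-Cre colons in both pairs, as 36.3% of all genes were, with a median log2 difference of 1.66. An unadjusted p under 0.05 was reached by 5, against 5.31% of all genes in this direction. None passed the adjusted threshold. Il1a, Lif and Il17a did not clear background anywhere. Ifng, the cytokine interferon gamma, gave -1.47 and -1.89 in Cd4-Cre colons, against -3.21 and -3.85 in controls (difference 1.85 ± 0.32, SE, limma adjusted p = 0.418). Osm, a cytokine of the interleukin 6 family, differed by 1.70 ± 0.32 and Il1b by 1.66 ± 0.32. These 3 genes were named for the smallest unadjusted p of the list. Both Cd4-Cre arrays lay above both controls for each, as for 25.7% of all genes. Il6, the main inducer in the liver, was named after its values were seen, at -1.77 and -0.36 in Cd4-Cre colons and -3.57 and -2.45 in controls (1.95 ± 0.59). Summed over the list, the level relative to the 75th percentile was 7.33 to 14.7 in Cd4-Cre colons and 3.17 to 4.66 in controls.

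Among 18 receptors and transcription factors of this response, all tested, 14 were higher and 4 lower in Cd4-Cre colons, with a median log2 difference of 0.19. An unadjusted p under 0.05 was reached by 6, all higher, against 5.31% of all genes in this direction. Socs3, the feedback inhibitor that STAT3 induces, gave 4.15 and 4.06 in Cd4-Cre colons, against 3.08 and 2.99 in controls. It was 2.10-fold higher, with the same difference of 1.07 in both pairs (± 0.11, SE, limma adjusted p = 0.373, or 0.0459 with the replicate block). Cebpd, a C/EBP factor that rises in the acute phase, differed by 0.72 ± 0.17, and Nfkbia, the NF-kappaB inhibitor and target, by 0.41 ± 0.13. For each of these 3 genes, picked by small p, both Cd4-Cre arrays lay above both controls, as for 25.7% of all genes.

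Other genes of the acute phase gave a mixed picture. Of 24 further positive acute phase genes, 12 were tested, 9 higher and 3 lower, with a median log2 difference of 0.23 and none at an unadjusted p under 0.05. Too dim on all 4 arrays were 10, among them Crp, Apcs, Hpx and the fibrinogen genes Fga, Fgb and Fgg. The siderophore-binding Lcn2 gave 0.50 and 2.29 in Cd4-Cre colons, against -0.85 and 0.73 in controls (1.45 ± 0.75, SE, limma adjusted p = 0.605, or 0.0459 with the replicate block). Like Saa3 and Hp, it was high in males of both genotypes. Steap4, a metalloreductase, differed by 0.78 ± 0.39, and complement factor Cfb by 0.20 ± 0.10. Of 7 negative acute phase genes, whose products fall in serum during inflammation, the 3 tested were lower on average. Rbp4 differed by -0.40 ± 0.12, Ttr by -0.34 ± 0.17 and Trf by -0.04 ± 0.30.

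**Figure D4:**
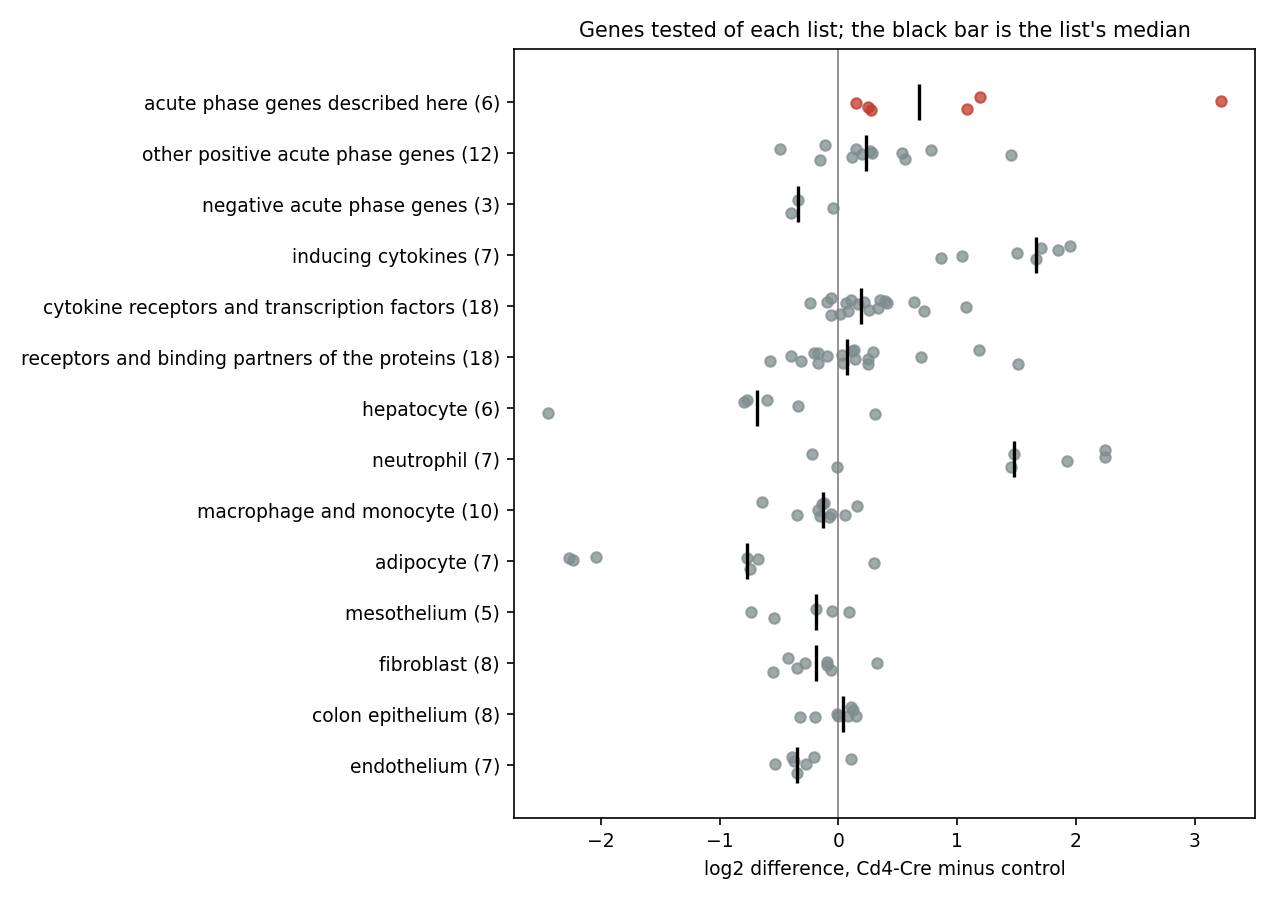
Log2 difference, Cd4-Cre minus control (x axis), of every tested gene of each list, 1 point per gene and 1 row per list, with the number tested in brackets and the median as a black bar. The inducing cytokines (median 1.66) and neutrophil markers (median 1.48) lie to the right. Genes of the hepatocyte (-0.68) and adipocyte (-0.77) lists lie to the left, and the acute phase genes described here (median 0.68) lie between.

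Markers of cells that can make these proteins were set beside them. Of 10 neutrophil markers 7 were tested, 5 of them higher in both pairs, where 36.3% of all genes were. The median log2 difference of the 7 was 1.48. The summed level of the 10 was 52.9 to 81.6 in Cd4-Cre colons and 46.9 to 48.3 in controls. Most of the sum in controls was Csf3r, a receptor gene that differed by -0.01 ± 0.13, and without it the sum was 12.1 and 41.3 in Cd4-Cre colons and 3.16 and 9.71 in controls. Camp, a granule peptide gene, differed by -0.22 ± 0.35; both were named after their values were seen. Ngp did not clear background. Ltf, the granule protein lactoferrin, differed by 1.48 ± 0.26, and the calprotectin genes S100a8 and S100a9 by 2.24 ± 0.78 and 2.24 ± 0.88 (SE). S100a8 and S100a9 were also high in males, by 1.74 and 1.97. Adipocyte markers lay the other way: 6 of 7 tested were lower on average, where 53.3% of all genes were higher. Their median was -0.77, and their summed level was 7.62 to 10.4 in Cd4-Cre colons and 19.1 to 21.3 in controls. Cfd, the fat cell product adipsin, differed by -2.04 ± 0.30, Lpl by -0.77 ± 0.14 and Adipoq, well above background on 1 of the 2 Cd4-Cre arrays, by -2.24 ± 0.49. The part of either cell type in the values of Saa3, Hp or Ptx3 was not tested.

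The other cell types had medians nearer to 0. Macrophage and monocyte markers had a median log2 difference of -0.13, with 8 of 10 lower (Mrc1 -0.64 ± 0.23, Cx3cr1 -0.35 ± 0.17, Itgam 0.16 ± 0.14). Fibroblast markers had a median of -0.19, with 7 of 8 lower (Lum -0.55 ± 0.16, Thy1 -0.35 ± 0.18, Pdgfra -0.42 ± 0.24). Mesothelial markers also had a median of -0.19, with 4 of 5 tested lower (Wt1 -0.54 ± 0.19, Msln -0.19 ± 0.13), and Upk3b, at least 1.58-fold lower, was not well above background in Cd4-Cre colons. Endothelial markers had a median of -0.34, with 6 of 7 lower (Cdh5 -0.53 ± 0.25, Kdr -0.39 ± 0.22, Pecam1 -0.34 ± 0.21). Ptx3 is also made by endothelium, fibroblasts and macrophages, and the part of these cells in its values was not tested. Among the epithelial markers, Epcam differed by 0.12 ± 0.11, Krt20 by 0.15 ± 0.11 and Car1 by -0.20 ± 0.17.

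Genes with a similar pattern over the 4 arrays were sought only among those with a current RefSeq symbol (14436 of 19326 tested). Each gene was centred on its own mean. Nearest to the mean pattern of Saa1, Saa2, Saa3, Hp and Lbp were Rnu3b1, Gm11110, Slc16a3, Adssl1 and C1ra. The root mean square distance was 0.04 for Rnu3b1, a small nucleolar RNA gene, and 0.08 for C1ra, a complement protease gene. Slc16a3, a lactate transporter, gave 2.12 and 2.48 in Cd4-Cre colons, against 1.38 and 2.05 in controls, and lay 0.07 from the mean pattern. A profile over 4 arrays holds few values, how near other patterns find a match was not examined, and the likeness is a description. The mean pattern itself, relative to its own average, was 0.11 and 0.48 in Cd4-Cre colons and -0.73 and 0.14 in controls, so the female control lay lowest.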

How the data were processed

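Total RNA of 4 whole colons was measured on 1 slide in 1 scan, 1 array per mouse, and groups came from the sample titles. The authors deposited spot intensity values from Agilent's scanner software (Agilent Feature Extraction 11.5.1.1, per the submitters' processing notes), and these are background-corrected within the array, per the file headers. The flags for well above background, saturation and outliers are other deposited values, per the file headers. Probe coordinates are those of the files (mm9). Log2 intensity minus the 75th percentile of each array was used. Outlier spots were left out, and 11 probes had no clean spot on every array. Probes well above background on at least 2 arrays were kept, and the brightest probe stood for its gene. Limma 3.58.1 in R 4.3.3 fitted genotype with an intensity trend, two-sided, with Benjamini-Hochberg adjustment over 19326 genes, and was tested on simulated data. Nothing in the labels shows how the mice were housed or paired, so p-values measure only the spread between these samples, and the number of arrays limits the precision. Depth has no meaning for array intensity. All 7 genes matched RefSeq by symbol and by probe accession, and promoter windows from RefSeq (GRCm38.p6) were found for Saa1, Saa2, Saa3 and Ptx3, not for Hp, Orm1 and Lbp. Windows were aligned globally (match 1, mismatch -1, gap opening -2, gap extension -1) with Biopython 1.88. Members and the 13 other lists were chosen with earlier results of these data known. Named were all 7 genes, the 3 tested genes of each other list with the smallest unadjusted p, and Junb, Xist and Eif2s3y. Also named were the 5 nearest profiles among genes with a current RefSeq symbol. The correlation of the deviations of same-numbered arrays from their group means was 0.24, and the labels do not pair the mice.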

Additional observations from a re-analysis of the deposited data

Results flagged for a closer look

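Among the genes named by the rule and tested, 3 differed between genotypes in opposite directions in the female and the male pair. The pairs hold 1 mouse of each genotype, and the difference between them was not tested. Lbp differed by 0.60 in the female pair and by -0.31 in the male pair. Itgam, an integrin of myeloid cells, differed by -0.065 in the female pair and by 0.38 in the male pair. Trf, the transferrin gene, differed by -0.22 and by 0.13. Orm1, too dim to test, had measured differences of -1.91 and 0.91.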

How the results depend on the processing

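No gene passed the adjusted threshold under any of the alternatives run except a replicate block, under which 46 genes did. Replicate numbers also set mice of 1 inferred sex side by side, and the labels state no pairing. With the replicate block, 5 of the 6 acute phase genes were higher at an unadjusted p under 0.05, as 10.1% of all genes were. The 5 include Ptx3, which entered the test through the Cd4-Cre arrays only and so had to differ. Saa3 passed the adjusted threshold with the block (1.19 ± 0.08, SE, limma adjusted p = 0.0415), as 0.181% of genes did in that direction. That SE rests on how alike the female and the male pair were (1.25 and 1.13) and on a spread shared over all genes. It does not measure the spread between mice of 1 genotype. Other genes named that passed only with the replicate block were S100a9 (adjusted p = 0.0236), S100a8 (0.0408), Cfd and Il11 (0.0415 each), and Socs3, Ltf and Lcn2 (0.0459 each). The number of genes with an unadjusted p under 0.05 was 3383 with the replicate block, 3607 without the filter on dim probes and 864 to 2167 without 1 array, against 1796. The number of acute phase genes at that threshold was 0 both with a filter on all 4 arrays, which leaves Ptx3 out, and with dim values at the floor, and 1 to 4 without 1 array. Without 1 array their median ranged from 0.21 to 1.25, Hp from -0.21 to 2.38 and Lbp from -0.56 to 0.85. A genotype left with 1 array was assumed to vary like the other. The causes of these shifts were not tested. Slide and scan could not serve as a block, as there was 1 of each. Normexp and quantile normalization kept the direction of all 6 genes. Each has 1 probe, so averaging probes, fitting each alone or leaving out the trend could not move a difference. Without the filter on dim probes the median was 0.28, since Orm1, which is dim on all 4 arrays and was lower, then counts.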

Other observations

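Many lists, not only those of the acute phase, were higher in the male than in the female arrays, given as values with no test. Of the 12 further positive acute phase genes tested, 11 were higher in males, with a median log2 difference of 0.61, and of 18 receptors and binding partners 17 were, with a median of 0.40. So were 8 of 8 fibroblast markers (0.43), 7 of 7 endothelial markers (0.53) and 9 of 10 macrophage and monocyte markers (0.40). Of the inducing cytokines 4 of 7 were higher in males, and of the acute phase genes described above 4 of 6. Over all genes 10759 of 19326 were higher in males, with a median of 0.03. Il11, a cytokine of the interleukin 6 family named after its values were seen, gave 0.58 in the female and 2.58 in the male Cd4-Cre colon, against -0.91 in the female and 1.05 in the male control, the same order as Saa3.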
